A study of Homo sapiens with 6 samples.

Results

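Peroxiredoxins and the thioredoxin system are described here as 10 genes taken by name from the deposited count table, PRDX1, PRDX2, PRDX3, PRDX4, PRDX5, PRDX6, TXN, TXN2, GSR and GLRX. All 10 were found among its 22481 genes, and all 10 were among the 15387 genes that passed the filter on low counts and were tested. The libraries come from 143B cells, an established human osteosarcoma line. Cells in a 6-well plate were grown for 24 h, after which celastrol was added to 3 wells for 24 h and 3 control wells were grown on for the same time. Celastrol is a quinone methide triterpene from Tripterygium wilfordii, and peroxiredoxins are reported binding partners of it. The labels give neither its dose nor a vehicle for the controls. Each library is 1 well of 1 cell line, so p-values measure the spread between wells, which may be technical.

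Peroxiredoxins are thiol peroxidases that reduce hydrogen peroxide and organic peroxides through a reactive cysteine. Most of them are returned to the reduced state by thioredoxin, which is itself reduced by thioredoxin reductase with electrons from NADPH. Glutathione reductase and glutaredoxin form a parallel NADPH-driven system that keeps glutathione reduced and removes glutathione from proteins. PRDX1 and TXN are often expressed at high levels in tumours.

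Library totals ran from 38.41 to 39.45 M counts. The first principal component of log2 CPM separated the groups, with celastrol replicate 2 and control replicate 1 nearest the other group (scores of -35.3 and 30.2). The mesenchymal gene VIM had 1502 to 1634 FPKM in controls and 1179 to 1219 FPKM with celastrol. In the same order, the osteoblast factor RUNX2 had 5.16 to 6.04 and 2.99 to 3.26 FPKM. The osteoblast enzyme gene ALPL stood at only 0.871 to 1.24 and 0.344 to 0.646 FPKM. The collagen gene COL1A1 had 1.18 to 1.69 and 1.93 to 2.52 FPKM. FN1 had 16.1 to 24 and 11 to 17.4 FPKM, and SPARC 87.1 to 117 and 103 to 110 FPKM. Of the epithelial genes, KRT8 had 178 to 182 FPKM in controls and 153 to 161 FPKM with celastrol. EPCAM had 3.65 to 4.16 and 4.39 to 4.69 FPKM. CDH1 had at most 0.0052 FPKM and the blood cell gene PTPRC at most 0.0235 FPKM in any library.

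The RNA of these 10 genes changed little after celastrol. In the quasi-likelihood fit of edgeR, with p-values adjusted by Benjamini-Hochberg over all tested genes, PRDX1 and PRDX3 rose, GSR fell, and the other 7 did not pass at an adjusted p under 0.05. Of all tested genes, 48.4% passed, 23.6% as higher and 24.8% as lower. The 3 of 10 is below that share, a difference that was not tested. The largest change among the 10 was that of PRDX1, 1.19-fold. The absolute log2 fold change of each of the 10 genes was below the median over all tested genes, 0.327. Among the 8698 tested genes with a mean log2 CPM of at least 4, where the median was 0.243, 9 of the 10 were below it. Of those 8698 genes, 57% passed. Because RNA was taken from whole wells, a change in the number of some cells and a change in RNA per cell cannot be told apart.

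**Figure D1:**
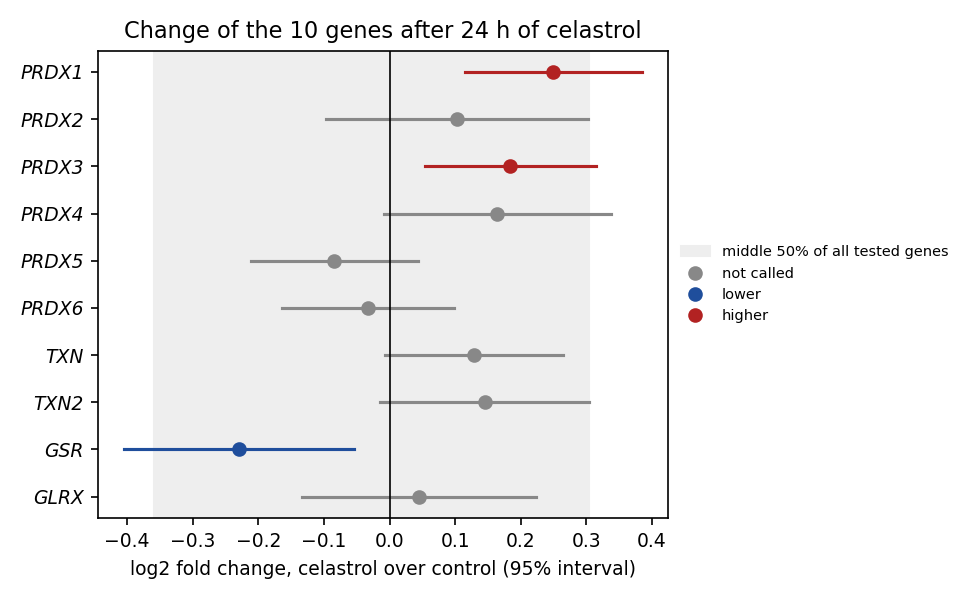
Log2 fold change of each of the 10 genes, celastrol over control, with its 95% confidence interval from edgeR (3 wells a group); red, called higher; blue, called lower; grey, not called; the shaded band holds the middle 50% of all tested genes. PRDX1 (0.25) and PRDX3 (0.18) lie to the right and GSR (-0.23) to the left of 0, and all 10 points lie within the band.

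Levels were compared between genes per length, as the deposited FPKM. In control wells the order of mean FPKM was PRDX1 (355), PRDX5 (198), TXN (164), PRDX6 (110), PRDX3 (104), PRDX4 (37.6), TXN2 (29.9), GLRX (26.9), PRDX2 (25.6) and GSR (22.8). Of the neighbours in that order, PRDX6 and PRDX3 overlapped between libraries, as did GLRX and PRDX2, and the other neighbours did not. PRDX1 exceeded 99.4% of the genes in the table in mean control FPKM, and GSR, the lowest of the 10, still exceeded 89% of them. With celastrol PRDX3 (122) stood above PRDX6 (110) without overlap, while PRDX5 (192) and TXN (185) now overlapped, and GLRX (28.6) and PRDX2 (28.3) overlapped as before.

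**Figure D2:**
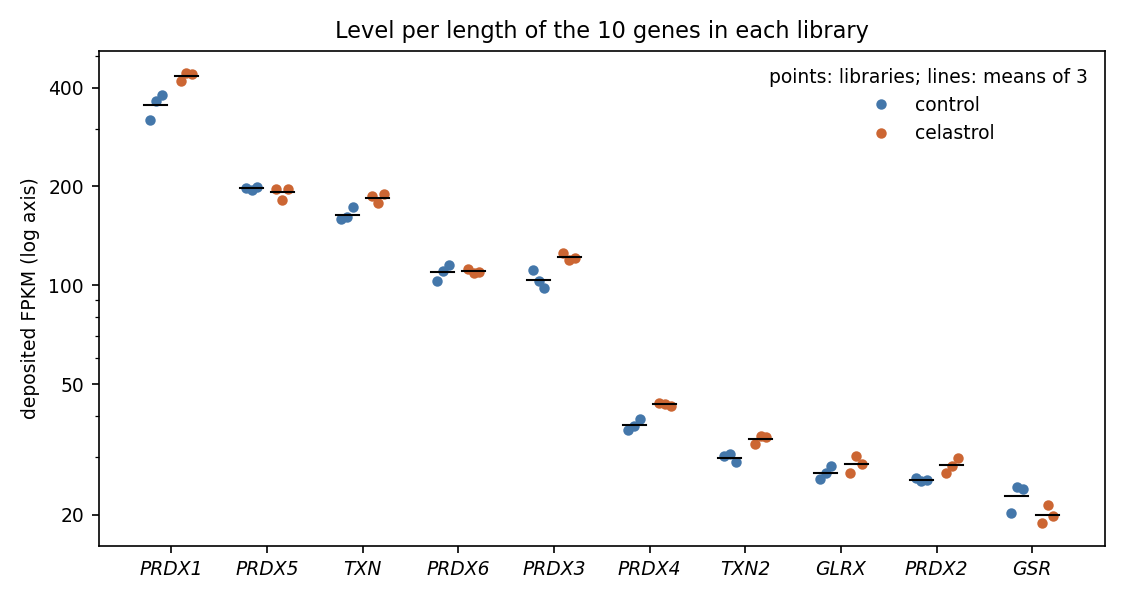
Deposited FPKM on a log axis for each of the 10 genes, ordered by their control mean; blue points are the 3 control wells, orange points the 3 celastrol wells (replicates 1 to 3 from left to right), and black lines the means. PRDX1 stands above the rest in every library, from 320 to 380 in controls and 419 to 442 with celastrol, and PRDX5 and PRDX6 lie at about the same height in both groups.

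PRDX1 encodes the abundant cytosolic peroxiredoxin (NCBI gene 5052, chromosome 1, 45511051 to 45522890, minus strand). It was read at 413, 470 and 498 CPM in control replicates 1, 2 and 3, and at 526, 557 and 558 CPM in celastrol replicates 1, 2 and 3, where CPM are counts scaled to a common library size after TMM. Every celastrol well lay above every control well, and control replicate 1 was the lowest of all. The mean went from 460 ± 43.3 to 547 ± 17.8 CPM (SD, n = 3), a log2 fold change of 0.25 ± 0.064 (SE; edgeR adjusted p = 0.00376). Without control replicate 1 it was 0.17 (edgeR adjusted p = 0.0106), and without both that library and celastrol replicate 2 it was 0.16 (edgeR adjusted p = 0.026). In the GENCODE 29 annotation, 24.9% of the exon bases of PRDX1 are shared with MMACHC, a cobalamin processing gene on the opposite strand. The library kit marked the strand, but no source used here says whether counting used it. MMACHC, named after its values were seen, went from 21.5 ± 1.78 to 30.7 ± 1.56 CPM (SD, n = 3). Its log2 fold change was 0.51 (edgeR adjusted p = 0.000348), and its difference was 9.17 CPM against 86.9 CPM for PRDX1. These gene totals do not show how reads in the shared bases were assigned, and their part in either change was not tested.

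PRDX2, the other cytosolic peroxiredoxin of the same class, is an antioxidant of red cells (gene 7001, chromosome 19, 12796823 to 12801800, minus strand). It was read at 24.2, 23.7 and 24.3 CPM in control replicates 1, 2 and 3 and 24.4, 25.7 and 27.3 CPM in celastrol replicates 1, 2 and 3. The groups lay next to each other without overlap, and the log2 fold change of 0.10 had a 95% interval from -0.10 to 0.30 (edgeR adjusted p = 0.391). Of its exon bases, 14.1% are shared with an annotated antisense RNA. Per length, PRDX1 exceeded PRDX2 by 13.9 ± 1.33 times in controls and 15.3 ± 0.491 times with celastrol (SD, n = 3), with overlapping ranges.

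PRDX3 encodes the peroxiredoxin of the mitochondrial matrix (gene 10935, chromosome 10, 119167720 to 119178812, minus strand). Control replicates 1, 2 and 3 had 174, 162 and 156 CPM, and celastrol replicates 1, 2 and 3 had 191, 182 and 186 CPM. The celastrol wells were all higher, with control replicate 1 closest to them. From 164 ± 9.19 to 186 ± 4.42 CPM (SD, n = 3), the log2 fold change was 0.18 ± 0.062 (SE; edgeR adjusted p = 0.0204). The call was lost without celastrol replicate 1 (edgeR adjusted p = 0.102), celastrol replicate 3 (0.0694), control replicate 2 (0.07) or control replicate 3 (0.0778), at log2 fold changes of 0.15 to 0.18. PRDX3 is the one called gene of the 10 whose promoter is in the RefSeq table used here (GRCh38.p14), so its sequence is printed here, chr10:119178763-119179062 on the minus strand, 5′ to 3′, from 250 bases before the start site to 50 after it. Capitals mark GC boxes, the letters GGGCGG on either strand.
PRDX3 promoter: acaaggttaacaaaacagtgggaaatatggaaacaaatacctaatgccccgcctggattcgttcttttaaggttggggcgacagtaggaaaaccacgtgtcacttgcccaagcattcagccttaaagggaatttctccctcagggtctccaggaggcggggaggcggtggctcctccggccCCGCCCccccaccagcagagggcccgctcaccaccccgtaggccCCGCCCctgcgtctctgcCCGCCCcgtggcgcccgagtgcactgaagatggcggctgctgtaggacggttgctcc

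PRDX4, the peroxiredoxin of the endoplasmic reticulum and secretory pathway (gene 10549, chromosome X, 23667493 to 23686397, plus strand), had 35.1, 35.9 and 38.5 CPM in control replicates 1, 2 and 3. Celastrol replicates 1, 2 and 3 had 41.1, 41.1 and 40.6 CPM. All 3 celastrol wells were above the controls and close to one another. The log2 fold change of 0.16 had a 95% interval of -0.0089 to 0.34 and did not pass (edgeR adjusted p = 0.108). It passed with library size alone as the scaling (edgeR adjusted p = 0.0444).

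PRDX5 forms its disulfide within 1 subunit and is found in mitochondria, peroxisomes and cytosol (gene 25824, chromosome 11, 64318121 to 64321811, plus strand). Its CPM were 172, 169 and 176 in control replicates 1, 2 and 3 and 166, 154 and 167 in celastrol replicates 1, 2 and 3. The groups were apart in CPM, with celastrol lower, but overlapped in FPKM (195 to 200 in controls, 182 to 197 with celastrol). The log2 fold change was -0.08, with a 95% interval of -0.21 to 0.04 (edgeR adjusted p = 0.266).

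PRDX6 has a single catalytic cysteine, is served by glutathione rather than thioredoxin, and has a phospholipase activity (gene 9588, chromosome 1, 173477335 to 173488815, plus strand). Control replicates 1, 2 and 3 stood at 176, 190 and 199 CPM, and celastrol replicates 1, 2 and 3 at 186, 181 and 185 CPM. The celastrol values lay within the control range. The log2 fold change of -0.03 had a 95% interval of -0.16 to 0.10 (edgeR adjusted p = 0.692), and its sign turned with library size alone (0.00898).

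As a family, the 6 peroxiredoxins summed to 829 ± 32.2 FPKM in controls and 929 ± 9.08 FPKM with celastrol (SD, n = 3), with ranges of 795 to 858 and 924 to 940. PRDX1 made up 42.7% ± 2.17 of that sum in controls and 46.7% ± 1.24 with celastrol. The shares of PRDX5 went from 23.9% ± 0.983 to 20.6% ± 0.813 and those of PRDX6 from 13.2% ± 0.235 to 11.9% ± 0.223. For each of these 3 genes the share did not overlap between groups. A share also falls when the sum rises. The FPKM themselves overlapped between groups for PRDX5 (means of 198 in controls and 192 with celastrol) and for PRDX6 (109.6 and 110.3). In TMM-scaled CPM the groups were apart for PRDX5, with celastrol lower. FPKM are scaled by library total without TMM, whose factors were 1.009 to 1.018 with celastrol and 0.977 to 0.991 in controls. The sums depend on this scaling, while the shares within a library do not. The shares of PRDX2 (3.09% and 3.04%), PRDX3 (12.6% and 13.1%) and PRDX4 (4.54% and 4.67%) overlapped.

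TXN encodes cytosolic thioredoxin, an electron donor of cytosolic peroxiredoxins and of ribonucleotide reductase (gene 7295, chromosome 9, 110243810 to 110256507, minus strand). Its CPM were 118, 120 and 130 in control replicates 1, 2 and 3 and 136, 129 and 138 in celastrol replicates 1, 2 and 3. Celastrol replicate 2 lay just under control replicate 3, so the groups overlapped. The log2 fold change of 0.13 had a 95% interval of -0.0068 to 0.26 (edgeR adjusted p = 0.108). TXN passed with library size alone (edgeR adjusted p = 0.0328) and without control replicate 3 (0.0498).

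TXN2, the mitochondrial thioredoxin that serves PRDX3 (gene 25828, chromosome 22, 36467046 to 36481640, minus strand), had 48, 48.8 and 46.7 CPM in control replicates 1, 2 and 3 and 50.7, 54 and 54 CPM in celastrol replicates 1, 2 and 3. Every celastrol well was higher, yet the log2 fold change of 0.15, with a 95% interval of -0.01 to 0.30, did not pass (edgeR adjusted p = 0.122). It passed with library size alone (edgeR adjusted p = 0.0491). Per length, PRDX3 exceeded TXN2 by 3.48 ± 0.176 times in controls and 3.58 ± 0.209 times with celastrol (SD, n = 3), and these ranges overlapped.

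GSR encodes glutathione reductase, which regenerates reduced glutathione with NADPH (gene 2936, chromosome 8, 30678066 to 30727846, minus strand). It was the one gene of the 10 called lower by edgeR with TMM scaling. Control replicates 1, 2 and 3 had 62.2, 74.5 and 74.2 CPM, and celastrol replicates 1, 2 and 3 had 56.2, 64.1 and 59.6 CPM. Control replicate 1 lay below celastrol replicate 2, so the groups overlapped. From 70.3 ± 6.99 to 60 ± 3.97 CPM (SD, n = 3), the log2 fold change was -0.23 ± 0.084 (SE; edgeR adjusted p = 0.0305). It was -0.36 without control replicate 1 and celastrol replicate 2 (edgeR adjusted p = 0.000352). For GSR these are the lowest control and the highest celastrol well, so leaving them out must widen the difference. The call was lost with library size alone (-0.19, edgeR adjusted p = 0.0709), and without celastrol replicate 1 (0.141), celastrol replicate 3 (0.0849), control replicate 2 (0.129) or control replicate 3 (0.114).

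GLRX encodes the cytosolic glutaredoxin, which removes glutathione from protein cysteines (gene 2745, chromosome 5, 95813849 to 95822726, minus strand). It had 39.2, 40.9 and 43.7 CPM in control replicates 1, 2 and 3 and 39.8, 45.1 and 42.8 CPM in celastrol replicates 1, 2 and 3. The groups overlapped over most of their range, and the log2 fold change of 0.04 had a 95% interval of -0.13 to 0.22 (edgeR adjusted p = 0.691). Leaving out 1 library gave 0.002519 (without celastrol replicate 2) to 0.0877 (without celastrol replicate 1), and none of these was called.

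The 2 groups did not overlap in CPM in 5 of the 10 genes with celastrol higher (PRDX1, PRDX2, PRDX3, PRDX4 and TXN2) and in 1 with celastrol lower (PRDX5). Over all tested genes these shares were 28.4% and 28.6%, or 56.9% in either direction, so 6 of 10 is near the share in either direction. By direction, 5 of 10 is above the share for higher and 1 of 10 is below that for lower, which was not tested. The median log2 fold change was 0.12 over the 10 genes and -0.00024 over all tested genes. With library size alone, 5 of the 10 were called higher (PRDX1, PRDX3, PRDX4, TXN and TXN2) and 0 lower, against 2 and 1 with TMM. At that setting 49.1% of all tested genes were called, 27.1% higher and 22% lower, and their median log2 fold change was 0.04. So 5 of 10 called is near the share in either direction. By direction, 5 of 10 is above the share for higher and 0 of 10 is below that for lower, and this too was not tested. DESeq2 and limma-voom each called 2 higher and 1 lower. The spread over control wells exceeded counting error in 8 of the 10 genes. In controls the standard deviation over wells was 9.4% of the mean for PRDX1 and 9.94% for GSR, while counting alone gives 0.753% and 1.93%. The exceptions were PRDX2, with 1.34% over control wells and 3.29% from counting, and TXN2, with 2.2% and 2.34%. By their symbols, GENCODE lists 7 pseudogenes of TXN, 4 each of PRDX2 and PRDX3, 3 of GLRX and 1 each of PRDX1 and PRDX4, and how reads shared with such copies were assigned was not tested.

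**Figure D3:**
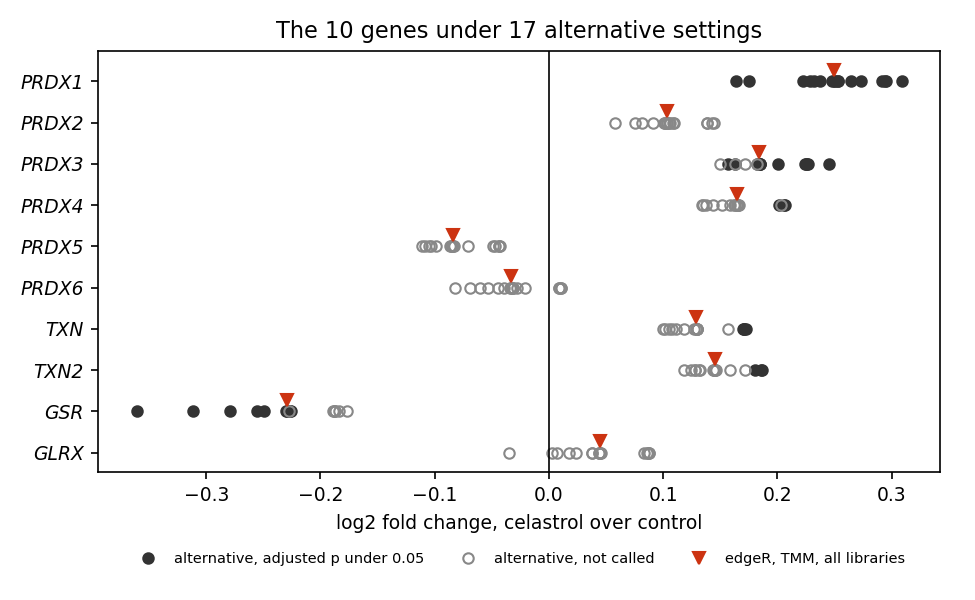
Log2 fold change of each of the 10 genes under the 17 alternative settings (points; filled where the adjusted p is under 0.05) and with edgeR, TMM and all libraries (red triangles). PRDX1 is filled at every setting, from 0.16 to 0.31; PRDX2, PRDX5, PRDX6 and GLRX are open at every setting.

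The promoter table holds 6 of the 10 genes, with 7 promoters, and PRDX1, PRDX6, TXN2 and GSR are missing from it. Searched on both strands, the antioxidant response element TGACNNNGC, which binds NRF2, the heat shock element GAANNTTC and the C/EBP-ATF element TGATGNAA each matched in 0 of these 7 promoters. They match in 13.3%, 6.77% and 3.62% of all 35116 promoters of the same 300 bases. GC boxes matched in 5 of the 6 genes (PRDX2, PRDX3, PRDX4, PRDX5 and TXN), counted per gene, and in 45% of all promoters, counted per promoter. The GC box holds only G and C. The matching promoters of these genes were 61.3% to 73.7% G and C, against a median of 58.7% over all promoters. No match says only that these letters are not in these windows. The promoter of TXN and the first of the promoters listed for TXNRD1, the cytosolic thioredoxin reductase, are shown because the products act as 1 electron relay. Capitals mark GC boxes and, in TXNRD1, also 2 matches of the antioxidant response element, TGACTTCGC at 99 to 91 bases upstream and GCTCCGTCA, its reverse strand form, which ends on the start site. The matches do not overlap. The other promoter listed for TXNRD1 had 1 match of the antioxidant response element, and each promoter listed for TXNRD2, SRXN1 and TXNIP had 0. The TXN promoter is chr9:110256458-110256757 on the minus strand and that of TXNRD1 chr12:104215529-104215828 on the plus strand.
TXN promoter: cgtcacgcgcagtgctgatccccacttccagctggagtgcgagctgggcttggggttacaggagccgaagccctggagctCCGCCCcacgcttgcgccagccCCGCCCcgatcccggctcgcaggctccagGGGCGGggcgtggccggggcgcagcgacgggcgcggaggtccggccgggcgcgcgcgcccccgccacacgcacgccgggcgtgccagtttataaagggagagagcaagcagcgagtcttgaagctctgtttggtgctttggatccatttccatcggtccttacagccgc
TXNRD1 promoter: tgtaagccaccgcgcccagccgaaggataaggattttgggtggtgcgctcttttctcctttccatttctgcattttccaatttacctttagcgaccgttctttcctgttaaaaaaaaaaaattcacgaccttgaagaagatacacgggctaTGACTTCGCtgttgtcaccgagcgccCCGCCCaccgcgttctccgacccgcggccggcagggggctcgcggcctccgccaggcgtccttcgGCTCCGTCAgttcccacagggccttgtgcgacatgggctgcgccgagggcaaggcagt

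Several genes of the enzymes that recharge the system changed by more than any of the 10. Of 8 thioredoxin reductases, sulfiredoxin and regulators, 1 rose and 4 fell, with a median log2 fold change of -0.23, where 23.6% of all tested genes rose and 24.8% fell. The mitochondrial reductase gene TXNRD2 had 54.4, 61.2 and 65.7 CPM in control replicates 1, 2 and 3 and 39.7, 35.7 and 36.3 CPM in celastrol replicates 1, 2 and 3, all lower with celastrol (log2 fold change -0.70 ± 0.087 SE, edgeR adjusted p = 4.03e-06). The testis-enriched reductase gene TXNRD3 fell by 0.85 on the log2 scale (SE 0.13, edgeR adjusted p = 4.37e-05). TXNRD1 had 228, 270 and 354 CPM in control replicates 1, 2 and 3 and 395, 360 and 409 CPM in celastrol replicates 1, 2 and 3, higher in every celastrol well. With a log2 fold change of 0.45 it did not pass (edgeR adjusted p = 0.0712), but it passed in 8 of 17 alternatives, among them DESeq2 (adjusted p = 0.0457) and edgeR without control replicate 3 (0.64, adjusted p = 1.06e-05). Its adjusted p ran from 1.06e-05 to 0.166 over them. Per length, TXN exceeded TXNRD1 by 2.57 ± 0.435 times in controls and 2.01 ± 0.0625 times with celastrol, and TXN2 exceeded TXNRD2 by 2.5 ± 0.269 and 4.48 ± 0.399 times (SD, n = 3). Neither ratio overlapped between groups.

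Among the regulators, SESN2, a stress-induced leucine sensor also reported to aid the recovery of peroxiredoxins, rose (1.31 ± 0.13 SE, edgeR adjusted p = 7.66e-07). SESN3 (-0.84) and SESN1 (-0.37), its relatives, fell. The SESN1 call was lost in 10 of its 16 alternatives, with adjusted p from 0.0307 to 0.115 over them, and among them without any single library other than control replicate 1. SRXN1, the sulfiredoxin that repairs overoxidised peroxiredoxins, was at 120 ± 10.8 CPM in controls and 113 ± 2.75 CPM with celastrol (SD, n = 3, edgeR adjusted p = 0.316), and 85% of its exon bases are shared with another annotated gene on the same strand, which makes its level uncertain. TXNIP, the inhibitor that binds reduced thioredoxin, was at 85 ± 7.45 and 90.1 ± 17.1 CPM (edgeR adjusted p = 0.618). TXNIP passed without celastrol replicate 2 (0.23, edgeR adjusted p = 0.0356).

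Of 15 other proteins with a thioredoxin fold, 10 rose and 1 fell, with a median log2 fold change of 0.31, beside 23.6% higher and 24.8% lower over all tested genes. The largest rises were those of TXNL4B, a thioredoxin-like splicing-related protein (0.98), and of the membrane oxidoreductases TMX1 (0.61) and TMX2 (0.58). NXN, nucleoredoxin, was the one that fell (-0.25). TXNL4B shares 10.8% of its exon bases with DHX38 on the opposite strand, which was at 0.07 (edgeR adjusted p = 0.425), and TMX2 shares 11.8% with an annotated read-through gene.

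Of 13 glutaredoxin, glutathione synthesis and glutathione peroxidase genes tested, 4 rose and 2 fell, with a median of 0.02, so that the 6 called are near the 48.4% called over all tested genes. GPX8, a peroxidase of the endoplasmic reticulum (0.58), the mitochondrial glutaredoxin gene GLRX2 (0.35), the cytosolic peroxidase gene GPX1 (0.25) and the transferase gene GSTP1 (0.17) rose. The glutathione synthetase gene GSS (-0.28) and GPX4, which reduces lipid peroxides (-0.25), fell. GLRX2 lost its call in 7 of 17 alternatives, among them without any single library other than control replicate 1 (adjusted p up to 0.141). GSTP1 lost it without celastrol replicate 1 (edgeR adjusted p = 0.104), celastrol replicate 3 (0.0942) or control replicate 2 (0.13), and with upper-quartile scaling (0.0557). Of 8 other antioxidant genes, 4 rose and 0 fell by edgeR (0 were lower by unadjusted p at the same threshold), with a median of 0.14. By adjusted p, limma-voom and DESeq2 each called 0 lower as well. The 4 called are near that same 48.4%, which counts either direction. All 4 were higher, where 23.6% of all tested genes were called higher and 24.8% lower. The methionine sulfoxide reductase genes MSRB3 (0.75), MSRB1 (0.52) and MSRA (0.41), whose enzymes are mostly recharged by thioredoxin, rose, as did the superoxide dismutase gene SOD1 (0.19). MSRA lost its call without celastrol replicate 3 (edgeR adjusted p = 0.0762) or control replicate 2 (0.0769). SOD1 lost its call in 7 of 17 alternatives, among them without any single library other than control replicate 3 (adjusted p up to 0.118). SESN1, GSTP1, SOD1 and DHX38 are outside the naming rule and were named after their values were seen.

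**Figure D4:**
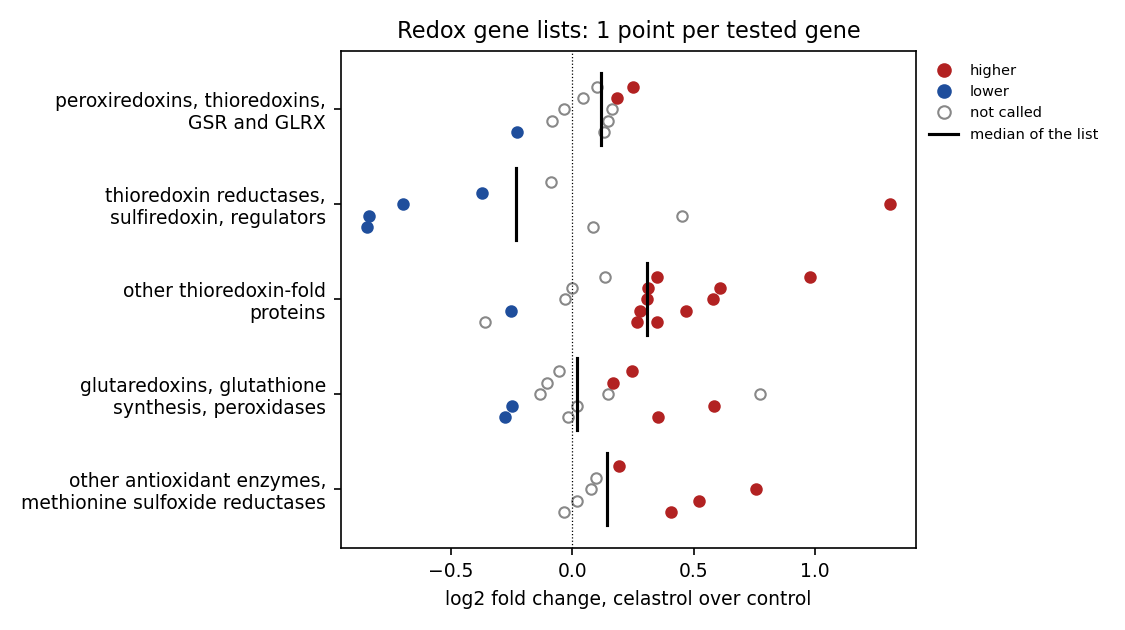
Log2 fold change of every tested gene of the 5 redox gene lists, 1 point per gene, filled red or blue where called higher or lower and open where not called; vertical bars are the list medians. The 10 peroxiredoxin, thioredoxin, GSR and GLRX points lie between -0.23 and 0.25, while the reductases and regulators run from -0.85 to 1.31.

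The genes nearest in pattern to the 3 members with the largest changes were found among 8688 other tested genes with a mean log2 CPM of at least 4. Likeness was the root mean squared difference in log2 CPM over the 6 libraries, each gene centred on its own mean. CHORDC1 (0.0197) and EMC7 (0.0204) were nearest to PRDX1, JMJD6 (0.0163) and PIP4K2C (0.0175) to GSR, and DIDO1 (0.0161) and SMARCD1 (0.0169) to PRDX3. With so many candidates and 6 libraries, such small differences are a description of these wells.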

How the data were processed

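RNA-seq of poly(A) RNA from 6 wells of 143B cells was analysed, 3 with celastrol and 3 controls, grouped by library title. The authors deposited read counts for each gene as whole numbers without normalization, and FPKM values, which per the file headers are in a table with the same genes and columns. Dividing counts by FPKM and library total gave the same gene length in each library (within 1e-06) for 20198 of the 20198 genes counted in 2 or more libraries. HISAT2 2.2.1, cutadapt 1.9, edgeR, DESeq2 and StringTie 2.1.6 were named as tools, and hg38 as the build, per the submitters' processing notes. Their roles, the annotation release and the use of strand in counting are not given in the sources used here. Totals of 38.41 to 39.45 M counts mean that 3 counts, the limit that a count of 0 allows, equal 0.076 to 0.0781 CPM.

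Genes were filtered with filterByExpr, scaled by TMM and tested with edgeR 4.0.16 (quasi-likelihood, robust, R 4.3.3). P-values were adjusted by Benjamini-Hochberg over all 15387 tested genes, with a threshold of 0.05. The SE is the absolute log2 fold change over the square root of F, and the 95% interval uses the test's degrees of freedom. Alternatives used DESeq2 1.42.0, limma 3.58.1, other scalings and filters, and fewer libraries. The test was checked on simulated counts whose changes were larger than that of any of the 10 genes. That check does not cover changes of their size. The genes and lists were chosen with earlier results of these data known. Named were all 10 genes, TXNRD1, TXNRD2, SRXN1, TXNIP, up to 3 called genes per list and direction with the largest change and a mean log2 CPM of at least 2, and the 2 nearest patterns to each of the 3 members with the largest change. Coordinates and promoters are from RefSeq (GRCh38.p14), matched by gene ID or symbol, and exon overlaps from GENCODE 29 (GRCh38). The GC box was added to the motifs searched after the other searches. No library repeated another of its group: the chi-square of their counts over its degrees of freedom was 6.68 to 22.4.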

Additional observations from a re-analysis of the deposited data

How the results depend on the processing

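Over 17 alternatives, PRDX1 (called) and PRDX2 and PRDX5 (not called) kept direction and call throughout, of the 10 genes. Members called higher and lower were 5 and 0 with library size alone and with limma on log2(FPKM + 1) or log2(FPKM + 0.1), against 2 and 1. These settings scale by library total without TMM. With library size alone, the median log2 fold change of all tested genes was 0.0413 above that with TMM. The cause of the difference in calls was not tested. Leaving out 1 library gave 1 to 2 higher (1 without control replicate 2, celastrol replicate 1 or celastrol replicate 3) and 0 to 1 lower (0 without the same libraries or control replicate 3). PRDX6 turned to 0.00898, 0.0103 and 0.01039 under those settings and was -0.08191 to 0.008994 with 1 library left out, positive without control replicate 3. GLRX turned to -0.0347 without both celastrol replicate 2 and control replicate 1. TXNIP was -0.02643 (without celastrol replicate 3) to 0.2314 (without celastrol replicate 2, the one of these values that was called). Calls lost with a library left out come with fewer samples.

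The reductases and regulators had 2 higher, not 1, with library size alone, DESeq2, either limma on FPKM, edgeR without robust estimation, without both libraries named above and with the replicate block, and 2 lower, not 4, with at least 10 CPM required in 3 libraries, where fewer genes are tested. The glutathione list had 2 higher with upper-quartile scaling, not 4. Leaving out 1 library gave 1 to 2 higher among reductases (2 without celastrol replicate 2 or control replicate 3), 1 to 2 lower among thioredoxin-fold genes (2 without celastrol or control replicate 1), and 2 to 4 higher in the glutathione list (2 without control replicate 2, celastrol replicate 1 or celastrol replicate 3) and in the other antioxidant list (2 without celastrol replicate 3 or control replicate 2).

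Same-numbered wells correlated at 0.0582, 0.0549 and 0.0341 in their deviations, under 0.1, so the numbers were not taken as pairs, although each library correlated best with its own number. With the replicate block, 3831 genes were higher and 3928 lower, against 3634 and 3815, and 2 and 1 of the 10 genes were.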
